A study of Mus musculus with 68 samples.

Results

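The genes described here are 9 mouse genes for oocyte chromatin factors and for histone variants: Npm2, Npm3, H1foo, Dppa3, H1f0, H3f3a, H3f3b, H2afz and H2afx. They were taken by gene name from the deposited expression table of every library, which lists 24421 reference genes, and all 9 were present in all 68 tables. The study followed H3K9me3 and RNA in somatic cell nuclear transfer (SCNT) embryos, in which a cumulus cell nucleus is placed into an oocyte whose own chromosomes were removed. Cumulus cells (CCs), the somatic cells around the oocyte, were the nuclear donors, BDF1 mice (B6D2F1 in the study's methods) gave the oocytes, and the reconstructed embryos were activated with strontium chloride in the presence of cytochalasin B. RNA was sequenced by Smart-seq2 from 3 CC libraries and 53 SCNT libraries. The SCNT groups were 6 h and 14 h after activation (6 hpa and 14 hpa), early and late 2-cell (E2C and L2C), 4-cell (4C), 8-cell (8C), morula, and 2 parts of the blastocyst, the inner cell mass (ICM) and the trophectoderm (TE), with 5 libraries at 4C and 6 in each other group. In a separate experiment, zygotes came from C57BL/6j parents, a strain other than that of the SCNT oocytes. The zygotes were injected with a morpholino (MO) against Max, with an MO against Mcrs1 or with a random control MO. Per the study, the MO concentration differed between these injections and was highest for the control, so target and dose cannot be told apart. From the ICM or the TE of the blastocysts that formed, 12 libraries were made, 2 per group.

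An egg carries its own set of chromatin proteins, and after nuclear transfer the somatic nucleus meets them. Npm2 (nucleoplasmin) is the histone chaperone of the egg, Npm3 is its relative in many cell types, H1foo codes for the oocyte linker histone, and Dppa3 (also called Stella or PGC7) codes for an egg factor that guards DNA methylation. On the somatic side, H1f0 codes for the replacement linker histone H1.0 of cells that have left the cell cycle. H3f3a and H3f3b both code for H3.3, the histone H3 that is placed outside S phase, H2afz codes for H2A.Z, a variant found around active promoters, and H2afx codes for H2A.X, which is phosphorylated next to DNA breaks.

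H3f3a (chr1:180802568-180813603, mm10) and H3f3b (chr11:116021961-116024504) lie on the minus strands of their chromosomes, and their annotated coding sequences in GENCODE vM21 translate to the same protein of 136 residues. Over the 408 coding bases before the stop codon they differ at 95 positions and are 76.7% identical. The first 120 coding bases of each are shown because within the coding sequence reads of these genes can be told apart only at such positions, and the capitals mark the 24 positions in this stretch at which the genes differ.
H3f3a, chr1:180811807-180811926: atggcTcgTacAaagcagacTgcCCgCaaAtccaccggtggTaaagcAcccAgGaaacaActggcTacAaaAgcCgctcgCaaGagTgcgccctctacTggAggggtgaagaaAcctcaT
H3f3b, chr11:116023890-116024009: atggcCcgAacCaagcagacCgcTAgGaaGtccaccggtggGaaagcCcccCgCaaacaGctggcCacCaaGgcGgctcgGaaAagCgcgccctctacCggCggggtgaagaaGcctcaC
The longest run of bases shared by both coding sequences was 23, shorter than the 150-base reads of the study. Beyond this pair, megablast against the GENCODE vM21 transcripts at 97% identity over at least 150 bases found 17 other genes for H3f3a, most of them processed pseudogenes, 4 for H2afz, 2 for H3f3b, 1 each for Npm3, H1f0 and Dppa3, and none for Npm2, H1foo and H2afx. These counts include opposite-strand transcripts. Opposite-strand genes overlap the annotation of Npm3, H1f0, H3f3a and H2afx. The levels of H3f3a, H3f3b, H2afz, Dppa3 and Npm3 may hold reads of such copies. For Dppa3 and for H3f3b a matching copy is annotated as a transcribed processed pseudogene. The counting is not stated to use strand, so the levels of members with an overlapping gene may also hold reads of that gene.

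The 250 bases before the start of transcription are shown for the oocyte and the somatic linker histone gene and for the H3.3 pair, since within each of these pairs the levels moved differently. The sequences are RefSeq's for GRCm38.p6, 5′ to 3′ on the strand of the gene, and 6 of the 9 members had an entry. The start used is that of RefSeq. GENCODE vM21 places the outermost start elsewhere for H1f0 (79028450), H3f3a (180813943) and H3f3b (116027962). The window and its motif matches therefore depend on the start used. The capitals mark matches on either strand to 4 motifs. The TATA box was searched as TATAAA and the CCAAT box as CCAAT. The GC box was searched as GGGCGG. The H1 box, an element of linker histone promoters, was searched as AAACACA.
H1foo, chr6:115944681-115944930, plus strand: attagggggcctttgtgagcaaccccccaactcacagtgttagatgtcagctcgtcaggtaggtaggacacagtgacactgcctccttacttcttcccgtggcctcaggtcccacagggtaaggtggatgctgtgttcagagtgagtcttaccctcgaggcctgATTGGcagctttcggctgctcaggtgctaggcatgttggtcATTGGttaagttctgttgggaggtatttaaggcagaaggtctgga
H1f0, chr15:79027962-79028211, plus strand: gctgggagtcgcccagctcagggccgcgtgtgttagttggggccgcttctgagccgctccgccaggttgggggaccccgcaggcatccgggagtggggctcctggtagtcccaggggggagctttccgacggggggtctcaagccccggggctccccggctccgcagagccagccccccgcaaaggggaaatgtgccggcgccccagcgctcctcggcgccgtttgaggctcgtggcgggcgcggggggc
H3f3a, chr1:180813606-180813855, minus strand: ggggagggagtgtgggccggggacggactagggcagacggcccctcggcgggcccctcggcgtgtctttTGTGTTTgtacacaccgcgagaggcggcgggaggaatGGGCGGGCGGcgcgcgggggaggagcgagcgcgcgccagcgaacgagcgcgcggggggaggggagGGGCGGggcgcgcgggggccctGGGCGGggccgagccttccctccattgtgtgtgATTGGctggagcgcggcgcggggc
H3f3b, chr11:116024505-116024754, minus strand: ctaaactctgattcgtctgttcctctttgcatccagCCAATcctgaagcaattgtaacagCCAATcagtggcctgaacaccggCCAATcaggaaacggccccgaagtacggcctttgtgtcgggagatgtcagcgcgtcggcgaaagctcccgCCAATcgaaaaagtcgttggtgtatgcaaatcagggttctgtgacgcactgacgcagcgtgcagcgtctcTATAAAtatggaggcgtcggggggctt
The H1foo window held 2 CCAAT boxes and 4 CpG dinucleotides at 53.2% G and C, and the H1f0 window held 24 CpG dinucleotides at 74.4% and no match to the motifs. H3f3a held 4 GC boxes, some of them overlapping, 1 CCAAT box and 1 H1 box, while H3f3b held 4 CCAAT boxes and 1 TATA box. Of all 32851 promoter windows of this length, 33.8% held a CCAAT box, 32.7% a GC box, 12.4% a TATA box and 6.25% an H1 box. An E-box (CANNTG, not capitalised) occurred in 66.2% of the windows, once each in H1foo and H3f3b and in neither H1f0 nor H3f3a. These matches describe letters in a window and were not tested for binding.

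All levels are TPM, which scales reads by transcript length and by the total of a library, here the total over the loci assembled from that library. Per the study's methods, the Smart-seq2 libraries were made from polyadenylated RNA. The levels of histone genes therefore do not cover mRNA without a poly(A) tail, and total mRNA was not measured. The reference genes took 30.4% to 90.9% of that total in the SCNT libraries and 81.8% to 82.5% in CCs, with the lowest share in L2C replicate 1. In the fertilized blastocysts they took 85.5% to 90.3% in the control libraries. With an MO against Max or Mcrs1 they took 93.6% to 94.4%, without overlap. Aligned sequence, estimated from coverage and FPKM, was 1.00 to 5.17 gigabases per library, and the tables give no counts, so no counting interval is given. In CCs 5 of 6 cumulus markers had a mean of at least 1 TPM and the list summed to 1287 to 1966 TPM, against at most 60.4 TPM in any SCNT library, with Has2 as the exception in CCs. The 7 oocyte markers summed to 0.543 to 2.32 TPM in CCs and 2373 to 4528 TPM at 6 hpa. TE markers (5 genes) summed to 1931 to 8383 TPM in the SCNT ICM and 5128 to 16059 TPM in the SCNT TE, ranges that overlap, and ICM markers (4 genes) to 211 to 373 and 54.8 to 222 TPM. In these bulk libraries, fewer cells of a type and less RNA per cell cannot be told apart. SCNT replicates 1 to 3 and 4 to 6 differed: the ranges of these sets did not overlap in 44 of the 81 pairs of a member and a stage (54.3%), against 33.4% of all such pairs over the genes of the fit. The labels name 2 sequencing providers and 3 replicates per stage, but do not say which library came from which provider. The sets were apart in 8 of 9 SCNT groups for H1foo and H2afx and in 7 for H3f3b. They were apart in 4 for H1f0, Dppa3 and H2afz, and in 3 for Npm2, Npm3 and H3f3a. Values within each set are given below for only some of these pairs, so a pair without them is not one in which the sets agreed.

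**Figure D1:**
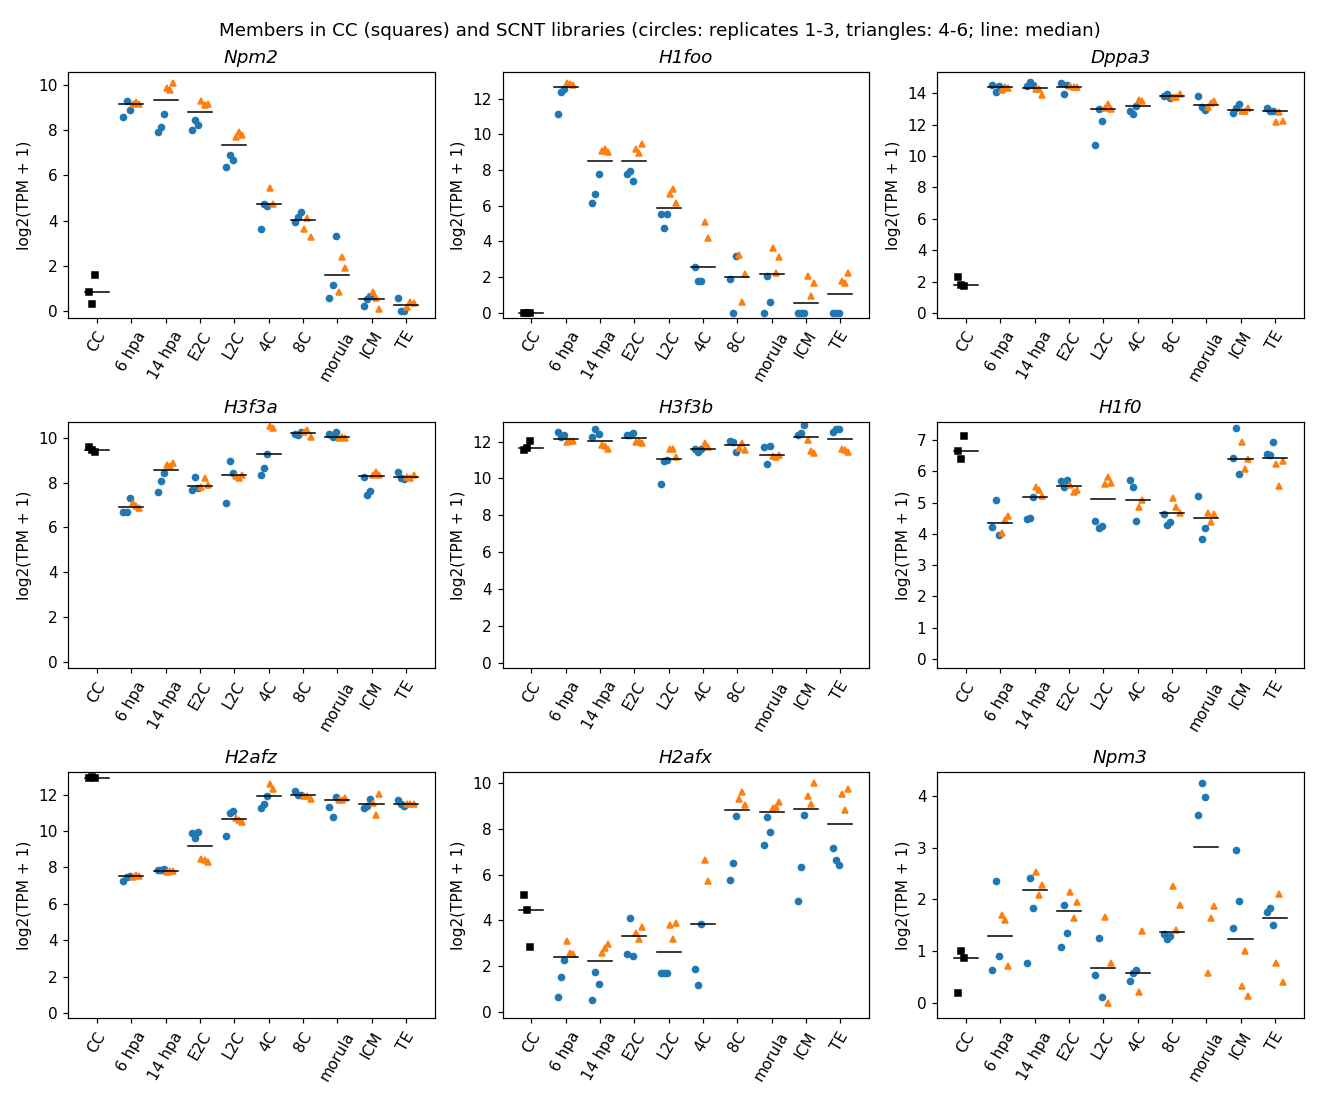
TPM of each member on the log2(TPM + 1) scale (y axis) in the 3 CC libraries and in the SCNT libraries of each stage (x axis), 1 point per library and a line at the group's median. Npm2 and H1foo are high from 6 hpa and decline toward the blastocyst, where both are at most 3.61 TPM in every library, H2afz rises from 6 hpa to 8C, and H2afx is at most 13.8 TPM at L2C and at least 53.9 TPM at 8C.

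H1foo, the oocyte linker histone gene (chr6:115944931-115950242), was listed at 0 in all 3 CC libraries. At 6 hpa its lowest, median and highest TPM were 2280.0, 6552 and 7456, and at 14 hpa they were 70.7, 370.5 and 585. The highest library at 14 hpa was below the lowest at 6 hpa. The difference between 14 hpa and 6 hpa on the log2(TPM + 1) scale (log2FC) was past the threshold of an adjusted p under 0.05 and at least 2-fold (log2FC = -4.45, SE = 0.62, limma adjusted p = 3.14e-07), and it was -5.18 in replicates 1 to 3 alone and -3.73 in replicates 4 to 6 alone. At E2C the values were 167, 368 and 716 TPM and overlapped those at 14 hpa, and at L2C they were 25.8, 57.6 and 120.4 TPM, below every library at E2C. H1foo was lower at L2C than at E2C (log2FC = -2.53, SE = 0.62, limma adjusted p = 0.00083, where a pseudocount of 0.1 gave an adjusted p of 0.0509 at -2.55) and lower again at 8C than at L2C (log2FC = -4.08, SE = 0.62, limma adjusted p = 1.43e-07). The 5 libraries at 4C held 5.00, 2.45, 2.47, 32.8 and 16.9 TPM. From 8C on the ranges were 0 to 8.61 TPM at 8C, 0 to 11.5 in morulae, 0 to 3.18 in the ICM and 0 to 3.61 in the TE, and these 4 ranges overlap. Replicates 4 to 6 were above replicates 1 to 3 without overlap in 8 of the 9 SCNT groups. In the ICM and in the TE the value was listed at 0 in each of replicates 1 to 3. In the ICM these libraries held 6177 to 6771 genes at 1 TPM or more, against 9011 to 10032 in replicates 4 to 6, and the reference genes took 74.6% to 78.9% of the assembled total against 89.2% to 89.4%. In the TE the ranges were 8401 to 8728 and 9284 to 9812 genes, and 81.5% to 82.8% against 89.9% to 90.9%. Their part in the H1foo level was not tested.

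Npm2, the nucleoplasmin gene (chr14:70647302-70653084), was near 0 in CCs, with 0.788, 0.231 and 2.04 TPM in the 3 libraries, and 382, 564 and 616 TPM (lowest, median and highest) at 6 hpa. The groups were far apart (log2FC = 8.13, SE = 0.44, limma adjusted p = 8.73e-23). Unlike H1foo, Npm2 gave no call between 14 hpa and 6 hpa (log2FC = 0.03, SE = 0.36, limma adjusted p = 1) or between E2C and 6 hpa (log2FC = -0.35, SE = 0.36, limma adjusted p = 0.561). At 14 hpa replicates 1 to 3 ranged over 241 to 416 TPM and replicates 4 to 6 over 858 to 1065 TPM. The corresponding ranges at E2C were 256 to 341 and 549 to 611 TPM. Npm2 fell at L2C, to 82.2, 163 and 238 TPM, below every E2C library (log2FC = -1.47, SE = 0.36, limma adjusted p = 0.000911). The decline went on through 4C, with 11.6, 25.3, 24.3, 42.1 and 25.2 TPM, and 8C, with 8.62, 15.3 and 19.7 TPM (log2FC = -3.31, SE = 0.36, limma adjusted p = 3.19e-11 for 8C against L2C). It was lower still in the ICM, at 0.0683 to 0.811 TPM (log2FC = -3.42, SE = 0.36, limma adjusted p = 4.41e-11 against 8C), and in the TE, at 0 to 0.496 TPM (log2FC = -3.66, SE = 0.36, limma adjusted p = 5.51e-12). In order of medians, neighbouring groups did not overlap between E2C and L2C and between L2C and 4C, and all other neighbours did. In the ICM Npm2 did not pass the threshold against CCs (log2FC = -0.42, SE = 0.44, limma adjusted p = 0.511).

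The summed oocyte markers also had a lower median at each later stage up to 8C. Their sum was 1026 to 2642 TPM at E2C, 343 to 1092 TPM at L2C, 22.9 to 80.6 TPM at 4C and at most 19.2 TPM at 8C. After 8C the median of their sum was higher again. It was 13.9 TPM at 8C, 20.4 TPM in morulae, 30.1 TPM in the ICM and 46.3 TPM in the TE. Fewer of the 7 markers made up that sum. At 8C 4 had a mean of at least 1 TPM, against 2 in morulae, 2 in the ICM and 1 in the TE. The part of these markers in the levels of Npm2 and H1foo was not tested.

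Dppa3 (chr6:122626424-122630271) stayed abundant in every embryo library. It was 3.96, 2.51 and 2.33 TPM in CCs and 17396, 20961 and 23496 TPM at 6 hpa (log2FC = 12.37, SE = 0.28, limma adjusted p = 6.76e-40). At 14 hpa it was 15249, 20744 and 26569.5 TPM and at E2C 15859, 21809 and 25144 TPM, and neither stage was called against 6 hpa (limma adjusted p = 1 and 0.92). At L2C it was 1692, 8198 and 10249.9 TPM, with all libraries below all those at E2C (log2FC = -1.82, SE = 0.23, limma adjusted p = 5.35e-09). The lowest L2C value came from replicate 1, the library with the smallest share of reference genes. The size of this fall depended on scaling, with a log2FC of -1.48 when the reference genes were rescaled to a common sum and -0.37 after quantile normalization, which took it under 2-fold. At 8C Dppa3 was 13433, 14117 and 15651 TPM, above every L2C library (log2FC = 1.25, SE = 0.23, limma adjusted p = 4.61e-06). That rise was under 2-fold without L2C replicate 1 (log2FC = 0.89), after rescaling (0.57), after quantile normalization (0.65) and in replicates 4 to 6 alone (0.66). In the ICM it was 6854, 7932 and 10097 TPM and in the TE 4544, 7273 and 8294 TPM. Against 8C the TE passed the threshold (log2FC = -1.16, SE = 0.23, limma adjusted p = 3.63e-05), while the ICM was lower by less than 2-fold (log2FC = -0.83, SE = 0.23, limma adjusted p = 0.00247). In replicates 1 to 3 alone the TE was also under 2-fold (-0.90), and after quantile normalization the ICM passed the threshold (-1.22), so these comparisons do not show the lineages to differ. Against CCs the ICM remained higher (log2FC = 11.02, SE = 0.28, limma adjusted p = 1.28e-37).

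Npm3 (chr19:45747734-45749563), the more widely expressed relative of Npm2, was low throughout. It was 0.142, 1.01 and 0.818 TPM in CCs and at most 18.0 TPM in any SCNT library, in a morula. It passed the threshold in none of the 14 comparisons of groups. Unadjusted for the number of genes, its limma p was under 0.05 between L2C and E2C alone (adjusted p = 0.0925, log2FC = -0.95). With a pseudocount of 0.1 and after quantile normalization Npm3 passed the threshold as lower at L2C than at E2C (-2.03 and -1.12) and as higher at 8C than at L2C (1.88 and 1.43). In morulae replicates 1 to 3 held 11.4 to 18.0 TPM and replicates 4 to 6 held 0.496 to 2.64 TPM.

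H1f0, the somatic linker histone gene (chr15:79028212-79030500), was 101, 83.1 and 139 TPM in CCs and 14.6, 19.2 and 32.6 TPM at 6 hpa, without overlap (log2FC = -2.35, SE = 0.35, limma adjusted p = 8.30e-08). It was higher at E2C than at 6 hpa, with 39.5, 45.3 and 51.5 TPM (log2FC = 1.15, SE = 0.30, limma adjusted p = 0.00267), although in replicates 1 to 3 alone the limma adjusted p was 0.0506 at a log2FC of 1.22. Between 14 hpa and morula its medians lay between 22.0 and 45.3 TPM. At L2C replicates 1 to 3 ranged over 17.3 to 20.3 TPM and replicates 4 to 6 over 47.8 to 55.6 TPM. H1f0 rose in the blastocyst to 59.0, 84.2 and 168 TPM in the ICM and 45.3, 85.4 and 122 TPM in the TE, above every library at 8C (18.7 to 34.5 TPM). Both lineages passed the threshold against 8C (log2FC = 1.86, SE = 0.30, limma adjusted p = 1.03e-06 in the ICM, and log2FC = 1.69, SE = 0.30, limma adjusted p = 6.03e-06 in the TE). The ICM did not pass it against CCs (log2FC = -0.20, SE = 0.35, limma adjusted p = 0.721).

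Taken as a share of the summed TPM of H1foo and H1f0 within each library, H1foo made up 99.2%, 99.7% and 99.8% (lowest, median and highest) at 6 hpa. The share was 77.0%, 89.3% and 93.6% at 14 hpa, 76.5%, 88.6% and 94.6% at E2C and 59.1%, 67.9% and 71.6% at L2C. It was 5.28%, 10.9% and 53.7% at 4C, 0%, 11.1% and 29.0% at 8C, 0%, 17.5% and 32.0% in morulae, 0%, 0.689% and 2.61% in the ICM and 0%, 1.59% and 4.55% in the TE. The sum of both genes was 2298, 6571 and 7471 TPM at 6 hpa and 18.7, 28.0 and 43.1 TPM at 8C. At L2C H1foo held the larger share in every library and at 8C H1f0 did, while at 4C the libraries lay on both sides.

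**Figure D2:**
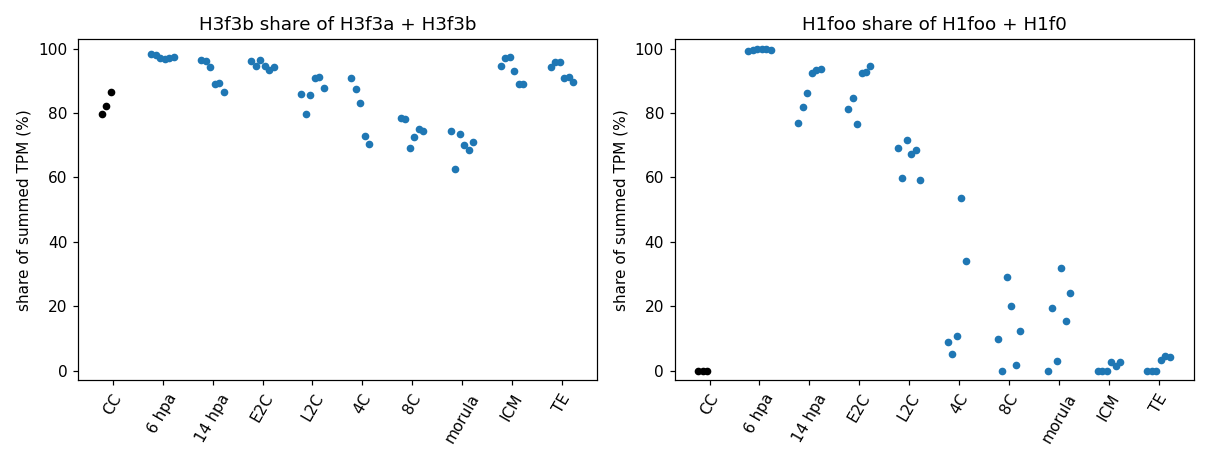
Share in percent (y axis) of H3f3b in the summed TPM of H3f3a and H3f3b (left) and of H1foo in the summed TPM of H1foo and H1f0 (right), 1 point per library, for CCs (black) and each SCNT stage (blue, x axis). The H3f3b share is lowest in morulae, with a median of 70.5%, and the H1foo share falls from a median of 99.7% at 6 hpa to 0.689% in the ICM.

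Of the H3.3 genes, H3f3b was the more abundant in every group. It was 3016, 3247 and 4208 TPM in CCs and 4003, 4514 and 5806 TPM at 6 hpa, and no call was made between them (log2FC = 0.44, SE = 0.29, limma adjusted p = 0.194). The single call for H3f3b among the SCNT comparisons was between L2C and E2C: it was 3936, 4687 and 5710.1 TPM at E2C and 825, 2162 and 3088 TPM at L2C (log2FC = -1.20, SE = 0.24, limma adjusted p = 6.88e-05). That change was -0.03 after quantile normalization, -0.86 after rescaling the reference genes, -0.94 without L2C replicate 1, and -0.54 in replicates 4 to 6 alone, all under 2-fold. The ranges of all neighbouring groups in the order of medians overlapped. In the TE replicates 1 to 3 held 5950.3 to 6666 TPM and replicates 4 to 6 held 2789 to 3059.9 TPM.

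H3f3a moved more. It was 766, 706 and 664 TPM in CCs and 101, 119 and 158 TPM at 6 hpa, without overlap (log2FC = -2.54, SE = 0.31, limma adjusted p = 3.85e-10). At 14 hpa it was 188, 381 and 473 TPM, above every library at 6 hpa (log2FC = 1.47, SE = 0.26, limma adjusted p = 2.89e-05), with a log2FC of 1.13 in replicates 1 to 3 alone and 1.82 in replicates 4 to 6 alone, the former with a limma adjusted p of 0.0535. At E2C it was 203, 233 and 305 TPM (log2FC = 1.01, SE = 0.26, limma adjusted p = 0.00284 against 6 hpa), close to the 2-fold limit, so that leaving out single libraries moved the log2FC between 0.94 and 1.08. At 4C the 5 libraries held 319.8, 401, 619.9, 1464 and 1395 TPM, with replicates 4 and 5 highest. At 8C it reached 1039, 1176 and 1318 TPM (log2FC = 1.98, SE = 0.26, limma adjusted p = 4.48e-09 against L2C), which was 0.84 after quantile normalization, and in morulae it was 1015, 1044 and 1245 TPM. All morula and 8C libraries were above all CC libraries. In the ICM it was 173, 314 and 356 TPM and in the TE 286, 302 and 354 TPM, both below every 8C library (log2FC = -2.12, SE = 0.26, limma adjusted p = 2.43e-09 in the ICM, and log2FC = -1.92, SE = 0.26, limma adjusted p = 2.60e-08 in the TE). The ICM was also below CCs (log2FC = -1.39, SE = 0.31, limma adjusted p = 0.000229).

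The H3f3b share of the summed H3.3 TPM followed from this. It was 79.7%, 82.1% and 86.4% in CCs and 96.7%, 97.3% and 98.3% at 6 hpa. It was 69.2%, 74.7% and 78.3% at 8C and 62.7%, 70.5% and 74.4% in morulae, and returned to 89.0%, 93.8% and 97.5% in the ICM and 89.6%, 92.8% and 95.8% in the TE. The summed level moved less, with medians of 4627 TPM at 6 hpa, 2548 TPM at L2C, 4808 TPM at 8C and 5126 TPM in the ICM.

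H2afz, the H2A.Z gene (chr3:137864487-137866922), was the endogenous control for RT-qPCR of MO knockdown efficiency in the study's methods. That efficiency was determined in injected fertilized embryos at the morula or blastocyst stage, not in CCs or SCNT embryos. In CCs H2afz was 7646, 7947 and 7858 TPM, and at 6 hpa 153, 182 and 189 TPM (log2FC = -5.45, SE = 0.28, limma adjusted p = 4.23e-24). It was called higher at E2C than at 6 hpa (log2FC = 1.62, SE = 0.23, limma adjusted p = 2.92e-07) and at L2C than at E2C (log2FC = 1.52, SE = 0.23, limma adjusted p = 4.68e-07). The replicate sets placed this rise differently. At E2C replicates 1 to 3 held 799 to 972 TPM and replicates 4 to 6 held 313 to 349 TPM, and the log2FC from 6 hpa to E2C was 2.39 in replicates 1 to 3 alone and 0.84 in replicates 4 to 6 alone. From E2C to L2C it was 0.78 in replicates 1 to 3 alone and 2.25 in replicates 4 to 6 alone. At L2C the values were 864, 1648 and 2167 TPM, at 4C 2496, 2869, 3916, 6059.9 and 5039 TPM and at 8C 3489.7, 4014 and 4803 TPM (log2FC = 1.36, SE = 0.23, limma adjusted p = 1.29e-06 for 8C against L2C). The last of these was under 2-fold after rescaling (0.68) and after quantile normalization (0.69). From 8C to the blastocyst no call was made, and the values were 1912, 2849 and 4265 TPM in the ICM and 2642, 2883 and 3342 TPM in the TE. The ICM stayed below CCs (log2FC = -1.44, SE = 0.28, limma adjusted p = 2.33e-05). Over the CC and SCNT groups the medians ranged from 182 to 7858 TPM. Over the 12 libraries of fertilized blastocysts the values ranged from 2240.4 to 3586 TPM.

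H2afx, the H2A.X gene (chr9:44334715-44336073), was low up to L2C and high from 8C. In CCs it was 33.3, 20.8 and 6.06 TPM and at 6 hpa 0.570, 4.21 and 7.39 TPM, a difference that did not pass the adjusted threshold (log2FC = -2.03, SE = 0.93, limma adjusted p = 0.0537). It passed in replicates 1 to 3 alone (-2.65), in replicates 4 to 6 alone (-1.41) and with a replicate block (-3.02). At L2C it was 2.19, 5.15 and 13.8 TPM, and at 4C 2.67, 1.24, 13.2, 98.2 and 52.3 TPM. At 8C it was 53.9, 452 and 771 TPM, above every library up to L2C (log2FC = 5.48, SE = 0.76, limma adjusted p = 2.02e-08), with a log2FC of 5.24 in replicates 1 to 3 alone and 5.71 in replicates 4 to 6 alone. It was then 158, 422 and 574 TPM in morulae, 27.6, 464 and 1027 TPM in the ICM and 83.2, 299 and 865 TPM in the TE, with overlapping ranges. Replicates 4 to 6 were above replicates 1 to 3 without overlap in 8 of 9 SCNT groups, as for H1foo, and in the TE the sets held 457 to 865 and 83.2 to 141 TPM. In the ICM and TE this split runs along with the numbers of genes and the reference shares given for H1foo, whose part in the H2afx level was not tested. In the ICM it was higher than in CCs (log2FC = 3.92, SE = 0.93, limma adjusted p = 0.000506), with a log2FC of 2.47 in replicates 1 to 3 alone and 5.38 in replicates 4 to 6 alone.

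Counted by comparison, 6 of 9 members passed the threshold between 6 hpa and CCs, 3 higher (Npm2, H1foo, Dppa3) and 3 lower (H1f0, H3f3a, H2afz), where 25.8% of all genes tested were past the threshold as higher and 35.6% as lower. No fold is given for H1foo in this comparison because it was listed at 0 in CCs. Between 14 hpa and 6 hpa 1 member was higher (H3f3a) and 1 lower (H1foo), where 6.14% of all genes tested were past the threshold as higher and 4.94% as lower. Between E2C and 6 hpa 3 were higher (H1f0, H3f3a, H2afz) and 1 lower (H1foo), where 11.3% of all genes tested were past the threshold as higher and 8.82% as lower. Between L2C and E2C 1 was higher (H2afz) and 4 lower (Npm2, H1foo, Dppa3, H3f3b), where 23.7% of all genes tested were past the threshold as higher and 11.2% as lower. Between 8C and L2C 4 were higher (Dppa3, H3f3a, H2afz, H2afx) and 2 lower (Npm2, H1foo), where 23.2% of all genes tested were past the threshold as higher and 32.8% as lower.

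Toward the blastocyst, 1 member was higher in the ICM than at 8C (H1f0) and 2 lower (Npm2, H3f3a), where 18.2% of all genes tested were past the threshold as higher and 16% as lower. In the TE 1 was higher than at 8C (H1f0) and 3 lower (Npm2, Dppa3, H3f3a), where 21.9% of all genes tested were past the threshold as higher and 13.6% as lower. Both comparisons share the 8C libraries. Between the SCNT ICM and TE limma called no member, and none had an unadjusted p under 0.05, where 1.47% of all genes tested were past the threshold as higher and 3.87% as lower. The limma log2FC of the members lay between -0.20 for H3f3a and 0.33 for Dppa3, and the SE for H2afx was 0.76, so differences of over 2-fold in H2afx were within its error. Between the ICM and CCs 2 members were higher (Dppa3, H2afx) and 2 lower (H3f3a, H2afz), where 16.9% of all genes tested were past the threshold as higher and 21% as lower.

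The balance of all calls depended on the scale on which libraries were set side by side, which bears on every direction above. In TPM, after rescaling and after quantile normalization, the higher genes made up 55.4%, 67.1% and 52.9% of all calls between 14 hpa and 6 hpa, 56.2%, 66.9% and 46.7% between E2C and 6 hpa, and 67.9%, 79.0% and 48.1% between L2C and E2C. The corresponding shares were 41.4%, 25.3% and 53.6% between 8C and L2C, 61.7%, 58.4% and 49.5% between the TE and 8C, and 27.6%, 28.5% and 46.5% between the ICM and TE. No member call reversed its sign under either scaling, and Npm2, H1foo and H2afx kept all of their SCNT calls under both.

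**Figure D3:**
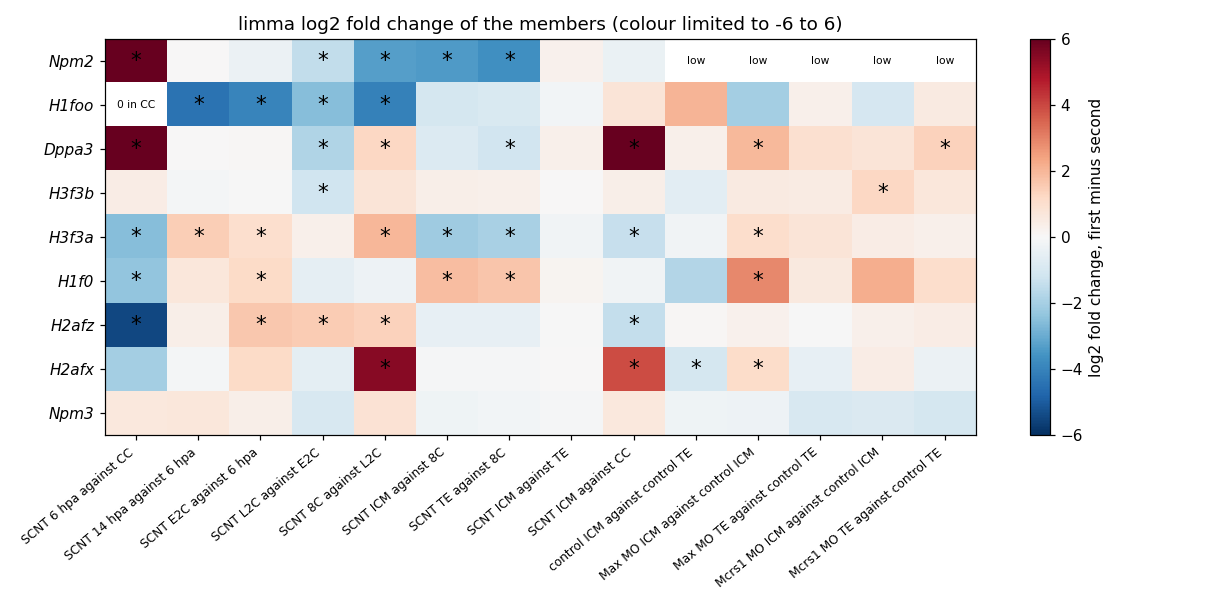
limma log2 fold changes of the 9 members (rows) in 14 comparisons (columns), first group minus second, with the colour limited to between -6 and 6 and asterisks on changes past the threshold. White cells marked low were not tested because the mean TPM of Npm2 was under 1, and the cell marked 0 in CC has no fold because H1foo was listed at 0. Npm2 and H1foo are blue from L2C to 8C, and no asterisk stands in the column for the SCNT ICM against TE.

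In fertilized blastocysts the target of each MO was checked first. Mcrs1 was 86.8 and 73.4 TPM in the Mcrs1 MO ICM compared with 253 and 310.1 TPM in the control ICM. In the TE it was 41.1 and 45.5 TPM with the Mcrs1 MO and 219 and 294 TPM in the controls. Max was 6.82 and 0.443 TPM in the Max MO ICM compared with 38.0 and 8.42 TPM in the control ICM, and 16.3 and 8.68 TPM in the Max MO TE compared with 34.5 and 28.5 TPM in the control TE. In each lineage the target was lower in both MO libraries than in both controls. Max was also lower in the Mcrs1 MO TE, at 17.6 and 15.7 TPM, than in the control TE, while in the Mcrs1 MO ICM, at 14.4 and 9.25 TPM, it lay within the range of the controls. Mcrs1 was 218 and 242 TPM in the Max MO ICM and 206 and 194 TPM in the Max MO TE, in each case below both controls. The nearest control libraries were at 253 and 219 TPM, and the share of all genes so separated was not computed. The control ICM libraries stood apart from each other: TE markers summed to 15975 TPM in replicate 1 and 354 TPM in replicate 2, against 2718 and 5824 TPM in the Max MO ICM and 11551 and 8041 TPM in the Mcrs1 MO ICM. Each call of a member below that rests on 1 of these libraries is given without it. Calls of other histone and partner genes were not examined in this way. Leaving out a library leaves a group of 1, which the fit assumes to vary like the other groups. The part of TE cells in the member levels was not tested.

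In the control blastocysts 1 of 8 tested members was called between the ICM and TE, where 1.72% of all genes tested were past the threshold as higher and 1.2% as lower. H2afx was 359 and 572 TPM in the ICM and 832 and 1068 TPM in the TE (log2FC = -1.05, SE = 0.23, limma adjusted p = 0.0391). This call lay at the 2-fold limit and was lost when control ICM replicate 1 was left out (log2FC = -0.72). It was also lost without control TE replicate 1 (-1.23, limma adjusted p = 0.151) or replicate 2 (-0.87, limma adjusted p = 0.153). After rescaling and after quantile normalization the log2FC was -0.99 and -0.97, just under 2-fold, with a limma adjusted p of 0.0452 and 0.0463. In the SCNT blastocysts, a separate experiment, H2afx overlapped between the ICM and TE.

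The Max MO ICM held 4 members called higher and none lower, where 8.65% of all genes tested were past the threshold as higher and 15.1% as lower. Dppa3 was 8924 and 12869 TPM, against 2252 and 3379.7 TPM in the control ICM (log2FC = 1.96, SE = 0.26, limma adjusted p = 0.00105). H3f3a was 593 and 539 TPM against 254 and 296 TPM (log2FC = 1.04, SE = 0.19, limma adjusted p = 0.00324), and H2afx was 894 and 1033 TPM against 359 and 572 TPM (log2FC = 1.08, SE = 0.23, limma adjusted p = 0.00681). For these 3 genes, and for H1f0 below, both Max MO libraries lay above both controls. The share of all genes so separated was not computed. The 7 oocyte markers summed to 83.2 and 83.5 TPM in the Max MO ICM and to 21.4 and 29.1 TPM in the control ICM. In each of these groups 3 of the 7 markers had a mean of at least 1 TPM. Gdf9, Bmp15 and Zp1 were at 0 in both Max MO ICM libraries, and Zp1 was at 0 in both control ICM libraries. The part of the markers in the Dppa3 level was not tested. The reference genes took 93.6% and 94.4% of the assembled total in the Max MO ICM, against 87.0% and 85.5% in the control ICM. The part of this in the member levels was not tested. After rescaling the reference genes to a common sum, 2 members passed the threshold. After quantile normalization Dppa3 kept its call with a log2FC of 1.58, while H3f3a and H2afx were under 2-fold at 0.82 and 0.79. H1f0 was 81.9 and 95.6 TPM against 45.0 and 2.30 TPM (log2FC = 2.86, SE = 0.85, limma adjusted p = 0.0298), and without control ICM replicate 2, at 2.30 TPM, its log2FC was 0.96 and no longer called. Its call was also lost without either Max MO ICM library (limma adjusted p = 0.101 and 0.122). Without control ICM replicate 1, H3f3a (0.93) and H2afx (0.75) were under 2-fold, and so were H3f3a without Max MO ICM replicate 1 (0.97) and H2afx without replicate 2 (0.98). In a fit of the Max MO and control ICM libraries alone, which has few degrees of freedom, none of the 4 passed, with limma adjusted p between 0.0721 and 0.193.

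After injection, the higher genes made up 36.5%, 29.1% and 52.6% of all calls in the Max MO ICM (in TPM, rescaled and quantile normalized), 41.8%, 32.7% and 52.6% in the Max MO TE, 48.4%, 38.5% and 55.9% in the Mcrs1 MO ICM and 34.9%, 27.6% and 52.6% in the Mcrs1 MO TE.

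In the Max MO TE no member passed the threshold with limma, 2 had an unadjusted p under 0.05, and 1.04% of all genes tested were past the threshold as higher and 1.45% as lower. Dppa3 was 3789 and 5252 TPM against 1926 and 2674 TPM in the control TE (log2FC = 0.97, SE = 0.26, limma adjusted p = 0.0704), and H3f3a was 537 and 535 TPM against 331 and 302 TPM (log2FC = 0.76, SE = 0.19, limma adjusted p = 0.0533). For both genes the MO libraries lay above the controls, short of the threshold, and the share of all genes so separated was not computed. The oocyte markers summed to 38.0 and 41.9 TPM in the Max MO TE and to 18.8 and 25.8 TPM in the control TE. Of the 7 markers, 2 had a mean of at least 1 TPM in the Max MO TE and 1 in the control TE. Zp1, Zp2 and Nlrp5 were at 0 in every library of both groups, as were Bmp15 in the Max MO TE and Gdf9 in the control TE. The part of the markers in the Dppa3 level was not tested.

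The Mcrs1 MO ICM held 1 member called higher, where 4.88% of all genes tested were past the threshold as higher and 5.21% as lower. H3f3b was 3632 and 3252 TPM against 2104 and 1031 TPM in the control ICM (log2FC = 1.22, SE = 0.27, limma adjusted p = 0.0197), and without control ICM replicate 2 its log2FC was 0.71, under 2-fold. Without either Mcrs1 MO ICM library its limma adjusted p was 0.122 or 0.0762. In the Mcrs1 MO TE 1 member was called higher, where 1.77% of all genes tested were past the threshold as higher and 3.31% as lower. Dppa3 was 5613 and 6288 TPM there against 1926 and 2674 TPM (log2FC = 1.39, SE = 0.26, limma adjusted p = 0.0174), and the call was lost without control TE replicate 1 or without either Mcrs1 MO TE library, at a log2FC between 1.15 and 1.47. Dppa3 was 5269 and 4294 TPM in the Mcrs1 MO ICM (log2FC = 0.79, SE = 0.26, limma adjusted p = 0.074). The oocyte markers summed to 18.1 and 35.1 TPM in the Mcrs1 MO ICM, which overlapped the control ICM, and to 29.3 and 25.5 TPM in the Mcrs1 MO TE, where 1 of the 2 libraries was above both controls. Thus Dppa3 lay above the control libraries in all 4 MO groups, with 2 of the 4 called. The MO groups of a lineage share their controls, and the share of all genes so separated was not computed.

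A difference in response between lineages was tested by an interaction term. No member and no gene passed with limma for either MO (0% of all genes tested), with 1473 genes for the Max MO and 972 for the Mcrs1 MO at an unadjusted p under 0.05. H2afx was higher with the Max MO in the ICM and lower in the TE, where it was 740.0 and 602 TPM against 832 and 1068 TPM (log2FC = 1.58, SE = 0.32, limma adjusted p = 0.146 for the difference in response). Without control ICM replicate 1, which leaves that group with 1 library and its spread taken from the other groups, the interaction gave 3 members past the threshold for each MO, and without replicate 2 it gave 1 for the Max MO.

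Npm2 and H1foo were low in most of the 12 fertilized libraries. Npm2 was at most 1.22 TPM and was not tested, since its mean was under 1 TPM. H1foo was listed at 0 in both control TE and both Max MO ICM libraries, and its highest value was 16.0 TPM, in control ICM replicate 2. In that library H1foo made up 87.5% of the summed TPM of H1foo and H1f0, against 0% in replicate 1. Npm3 was at most 6.11 TPM, in the same library. Set beside the SCNT blastocysts, and with no test because the experiments are separate and the strains differ, Dppa3 was 2252 to 3379.7 TPM in the control ICM and 6854 to 10097 TPM in the SCNT ICM, H3f3a was 254 to 296 and 173 to 356 TPM, and H1f0 was 2.30 to 45.0 and 59.0 to 168 TPM.

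**Figure D4:**
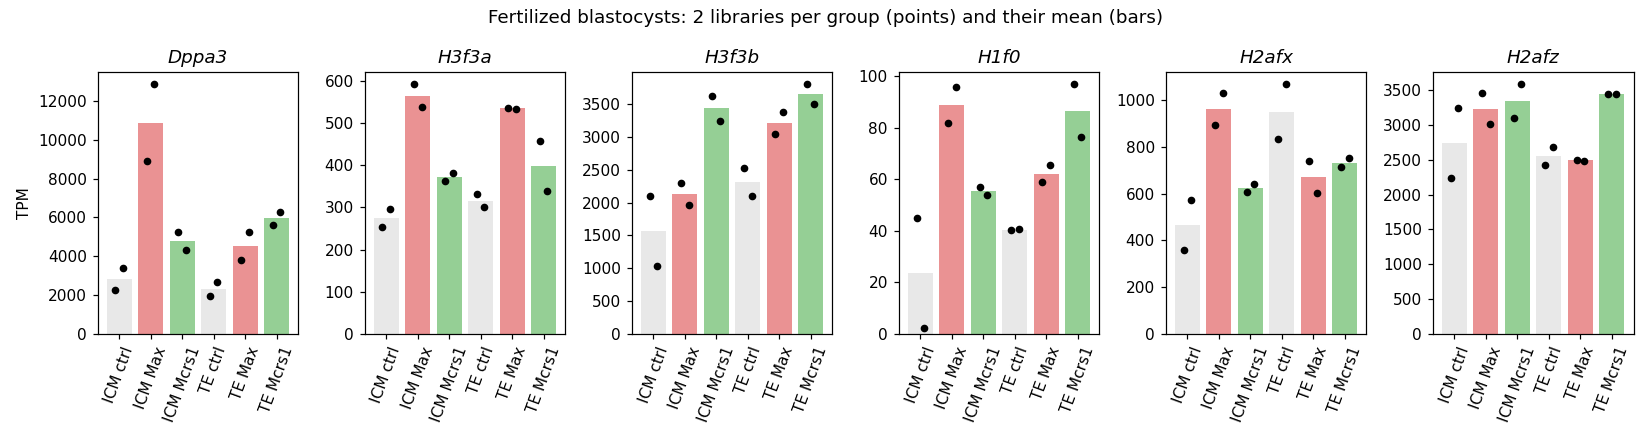
TPM (y axis, from 0) of 6 members in fertilized blastocysts, by lineage and by injection of control MO (ctrl, grey), Max MO (red) or Mcrs1 MO (green), with a point for each of the 2 libraries per group and a bar for their mean. Both Dppa3 points of the Max MO ICM, at 8924 and 12869 TPM, lie above every control point, and 1 H1f0 point of the control ICM lies at 2.30 TPM.

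Other histone genes and the proteins that place or read these variants give the surroundings. Of 17 other histone and nucleophosmin genes, 11 were tested in the SCNT fits. Between 6 hpa and CCs 3 of them were higher and 6 lower, beside 25.8% and 35.6% of all genes, with a median log2FC of -1.88 against -0.28 over all genes. Hist1h2aa, a testis and oocyte H2A gene, was higher (4.88), as was the linker histone gene Hist1h1a (4.03), and the lowest were H2afy, for macroH2A (-5.29), and H2afj (-4.19). H2afy returned in the blastocyst, with a log2FC of 5.30 in the ICM and 5.38 in the TE against 8C. H2afv, the second H2A.Z gene, rose together with H2afz at E2C (1.36) and L2C (2.30), then was lower in the ICM than at 8C (-1.62). Between 8C and L2C 2 of the 11 were higher and 3 lower, beside 23.2% and 32.8% of all genes, led by Npm1, the somatic nucleophosmin (2.46), and Hist1h1a (-2.46). In the SCNT ICM against CCs limma called none of the 11, 3 of which had an unadjusted p under 0.05, beside 16.9% of all genes higher and 21% lower.

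Of 16 partners of H3.3, H2A.Z and H2A.X, 15 were tested in the SCNT fits. Between 6 hpa and CCs 6 were higher and 2 lower, beside 25.8% and 35.6% of all genes, with a median log2FC of 0.86 against -0.28 over all genes. Asf1a, an H3 chaperone, was higher (2.80), and so was Atrx, which works with Daxx in placing H3.3 (2.48), while Znhit1, a subunit of the complex that loads H2A.Z, was lower (-4.51). Znhit1 rose with H2afz at L2C (2.72) and at 8C (1.14). Between 8C and L2C 2 partners were higher and 7 lower, beside 23.2% and 32.8% of all genes, with Vps72, an H2A.Z chaperone, the highest (2.70) and Atrx the lowest (-1.90). In the Max MO ICM 1 of 16 was higher and 5 were lower, beside 8.65% and 15.1% of all genes, with a median of -0.93 against -0.21 over all genes. The lowest of these were Baz1b, a kinase for H2A.X (-3.33), and Atrx (-2.93). In the Mcrs1 MO ICM 1 of 16 partners was lower (Atrx, -2.08), beside 5.21% of all genes. In the Mcrs1 MO TE 2 were lower, Cabin1 (-2.21) and Atrx (-1.48), beside 3.31%. No partner was higher in either group. Of 10 other histone genes tested, 3 were higher in the Max MO ICM, 2 in the Mcrs1 MO ICM and 1 in the Mcrs1 MO TE. None was lower in these groups. The shares of all genes higher were 8.65%, 4.88% and 1.77%. H2afj was higher in each of these groups (1.28, 1.07 and 1.29).

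Pearson correlations were taken between group means on the log2(TPM + 1) scale over CCs and the 9 SCNT groups, in the fit of 12084 genes. The members themselves were left out of the ranking. Outside the members, the genes whose pattern was most like that of Npm2 were Wdr47, Nexn and Strn, all at r = 0.987. For H1foo they were Prex2 (r = 0.991), Ttll13 (0.987) and Sh3rf3 (0.985). For H2afz they were Chrac1 (0.991), Mcl1 (0.990) and Slc39a1 (0.987), and for H2afx Cdipt (0.988), Eif5a (0.987) and Cyp2s1 (0.986). Dppa3 was most like Exo1 (0.960), H1f0 most like Tgif1 (0.953), H3f3b most like Ngrn (0.878) and Npm3 most like Mir8093 (0.902). For H3f3a the nearest were Zfp105 (0.946) and Gm12657 (0.936), the latter a processed pseudogene that matches H3f3a transcripts at 98.5% over 411 bases. These correlations rest on 10 points that share libraries and depth, and are a description.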

How the data were processed

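Per the labels and the study's methods, reads were trimmed with cutadapt 1.16, mapped to mm10 with HISAT2 and quantified with StringTie. The authors deposited for each library a table with the coverage signal, FPKM and TPM of each gene. Its rows hold both the assembled loci, over which TPM adds up to the full total, and the reference genes, so gene values were read on the scale of the loci. Coverage and FPKM were used only to estimate aligned gigabases. A member's TPM of at least 10 was within 2% of the overlapping assembled loci in 431 of 446 values.

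The TPM of a gene was summed over its rows, and log2(TPM + 1) was fitted with limma 3.58.1 (lmFit, eBayes with trend; R 4.3.3; Python 3.11.15 and BLAST 2.17.0 for the rest) on genes with a mean of at least 1 TPM: 12084 genes in CCs and SCNT embryos (56 libraries, for comparisons with CCs), 11867 in SCNT embryos (53) and 11219 in fertilized blastocysts (12). No count test was run, since the tables hold no counts. The threshold was a Benjamini-Hochberg adjusted p under 0.05 over all genes tested and at least 2-fold. A fold on this scale understates the change of low genes. The fit was tested on simulated data. All members are named, and from the lists of other histones and partners at most the 2 highest and 2 lowest genes past the threshold.

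The members and lists were chosen with earlier results of these data known, and the comparison of 14 hpa with 6 hpa was added after values had been seen. Each library was made from 10 blastomeres per the labels. The study's figure legends call the SCNT libraries biologically independent and those of each MO group biological replicates. Whether they came from separate embryo cultures is not stated. The p-values therefore measure the spread between libraries, part of which may be technical. The 4 control libraries of the MO experiment are labelled untreated, while the treatment protocol names a random control MO. The replicate number of 1 library at 4C differs between its label and its table, and the label was used. Same-numbered libraries deviated together between 14 hpa and 6 hpa (correlation of each pair 0.142 to 0.39) and between the SCNT ICM and TE (0.131 to 0.3), and a replicate block was an alternative. The others were a pseudocount of 0.1, other filters, rescaling over the reference genes, quantile normalization, smaller fits, the largest row of a gene, replicates 1 to 3 or 4 to 6 alone, and single libraries left out.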

Additional observations from a re-analysis of the deposited data

Results flagged for a closer look

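Of 81 pairs of a member and an SCNT group of 5 or 6 libraries that were tested, 3 held a library farther from the others than Dixon's criterion allows, where chance flags about 1 in 20. H1foo was 2280.0 TPM in replicate 1 at 6 hpa, below the other 5 libraries. H2afz was 153 TPM in the same library. H3f3b was 825 TPM in L2C replicate 1, the library in which the reference genes take the smallest share of the assembled total. The response of H2afx to the MOs went up in every ICM library and down in every TE library, with a difference between the responses of 1.58 on the log2 scale for the Max MO and 0.83 for the Mcrs1 MO. By limma's interaction term neither passed, with adjusted p = 0.146 and adjusted p = 0.528, and both share the control libraries.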

How the results depend on the processing

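For the 41 member changes past the threshold, 361 of 396 values under other settings kept their direction and their side of the threshold, as did 383 of 406 with a library left out, and none reversed. Of the 41, 22 kept their call in all of these. The replicate block lost no call of a member, and left 2 members called between 14 hpa and 6 hpa and 0 between the SCNT ICM and TE. In comparisons where the numbers do not pair the libraries it added H2afx between 6 hpa and CCs (-3.02) and H1foo between the ICM and 8C (-1.06). Over all settings, 39 values of a member not called in the main result passed the threshold, 13 of them without control ICM replicate 1, which leaves 1 library whose spread is taken from the other groups. With replicates 1 to 3 alone 1 member passed between 14 hpa and 6 hpa, and with replicates 4 to 6 alone 2 passed between E2C and 6 hpa. The counts in the MO experiment were less stable. Between the control ICM and TE the count of 1 went to 0 with all genes above 0 tested, with rescaled TPM, with quantile normalization and in a fit of the compared groups alone, and to 0 to 3 without single libraries. For the Max MO ICM the count of 4 became 2 with rescaled TPM, 2 with quantile normalization and 0 in the smaller fit, and 2 to 4 without single libraries. For the Mcrs1 MO ICM the count of 1 became 0 with all genes, with quantile normalization and in the smaller fit, and 0 to 3 without single libraries. For the Mcrs1 MO TE it became 0 with all genes and with quantile normalization, 2 in the smaller fit, and 0 to 1 without single libraries. The interaction counts of 0 reached 3 for each MO when control ICM replicate 1 was left out, and 1 for the Max MO when replicate 2 was. The smaller fits hold fewer libraries and the fits on all genes more tests; the cause of the other changes was not tested. Rescaling moved the median log2FC of all genes between 8C and L2C from -0.23 to -0.80 and quantile normalization to 0.11. The tables hold no counts, so the depth behind a low value is unknown.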
